A study of Homo sapiens with 12 samples.

Results

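Transcript levels of 9 genes were followed in cells of the human fibrosarcoma line HT1080 under interferon-γ (IFNγ), ionising radiation, both or neither. The genes are CTGF, CYR61, THBS1, TNC, SPARC, BGN, FN1, ACTA2 and TAGLN, which are targets of transforming growth factor β (TGF-β) or of the coactivator YAP, or encode matricellular, matrix and contractile proteins. They were taken by symbol from the table of counts and are 9 of its 19293 genes. All 9 passed the filter on low counts, which left 12160 genes. Cells given IFNγ at 10 ng/ml together with 20 Gy, cells given IFNγ alone, cells given 20 Gy alone and untreated cells were each sampled as 3 RNA libraries, and cells were collected 24 h after treatment. All groups come from the same line, and the labels do not say whether replicates came from separate cultures. The p-values then cover only the spread among these libraries, which may be technical.

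CTGF and CYR61 (named CCN2 and CCN1 in current nomenclature) encode secreted CCN proteins and are widely used readouts of YAP and TAZ. These coactivators enter the nucleus when the Hippo kinases are inactive and act through TEAD transcription factors. TGF-β is secreted in a latent form, and once released it signals through a receptor pair to SMAD2 and SMAD3. In fibroblasts this pathway raises matrix genes such as FN1 and contractile genes such as ACTA2 and TAGLN. Contractile genes also answer to SRF and its actin-regulated cofactors, the MRTFs. IFNγ, which signals through JAK kinases, is known to oppose TGF-β in mesenchymal cells.

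Promoters of 3 members are shown because the letters GGAATG, bound by TEAD factors (also read as CATTCC on the other strand), occur in them. RefSeq windows on build GRCh38.p14 matched 7 of the 9 members, with 8 windows, since ACTA2 has a proximal and a distal start. Each sequence runs 5′ to 3′ over the 240 bases that begin 250 bases before the gene start, and capitals mark GGAATG and, in THBS1, also the letters TTCNNNGAA that STAT factors bind. CTGF lies on the minus strand at chr6:131951383-131951622, ACTA2 (proximal start) on the minus strand at chr10:88952784-88953023 and THBS1 on the plus strand at chr15:39580829-39581068.
CTGF: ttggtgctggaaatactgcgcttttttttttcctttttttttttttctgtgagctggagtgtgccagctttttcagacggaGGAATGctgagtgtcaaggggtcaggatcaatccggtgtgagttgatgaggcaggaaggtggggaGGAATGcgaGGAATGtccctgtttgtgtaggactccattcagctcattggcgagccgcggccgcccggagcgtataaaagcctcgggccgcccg
ACTA2: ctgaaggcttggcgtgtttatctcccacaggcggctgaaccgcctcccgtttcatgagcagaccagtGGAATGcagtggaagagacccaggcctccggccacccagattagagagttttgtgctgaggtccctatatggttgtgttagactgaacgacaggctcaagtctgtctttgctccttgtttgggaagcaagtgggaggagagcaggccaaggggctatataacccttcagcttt
THBS1: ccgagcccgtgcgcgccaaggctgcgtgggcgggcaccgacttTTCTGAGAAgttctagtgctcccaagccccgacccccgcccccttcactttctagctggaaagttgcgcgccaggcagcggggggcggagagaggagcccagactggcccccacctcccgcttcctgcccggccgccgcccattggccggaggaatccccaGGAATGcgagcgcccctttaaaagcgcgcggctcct
CTGF held 3 copies of GGAATG, which begin 169, 104 and 95 bases before the start. ACTA2 held 1, at 183 bases, and THBS1 held 1, at 46 bases, and SPARC, not printed, also held 1. The windows of FN1, TNC, BGN and the distal ACTA2 start held none. Of 35116 such windows over all genes, 11.5% held GGAATG on either strand, 6.40% held TTCNNNGAA and 1.13% held an exact match to the consensus of the CArG box, the kind of element bound by SRF. No member window held an exact match, and sites with a base off the consensus, which SRF can also bind, were not counted. In the printed windows no match overlapped another. A match describes letters, not occupancy.

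Total counts ran from 9675126 to 11010656 per library. The unit of level is CPM, a gene's counts per 1e6 of its library's total after scaling by the trimmed mean of M-values (TMM). They are relative levels, so fewer cells making a transcript and less of it per cell cannot be told apart. All 10 listed mesenchymal markers, FN1 among them, were tested, and their summed level was 7217 to 7276 CPM in combination libraries, 7334 to 7394 CPM in libraries with IFNγ alone, 7106 to 7362 CPM in irradiated libraries and 7439 to 7622 CPM in untreated libraries. Most of these sums was VIM, with means of 4507, 5490, 4209 and 5187 CPM in the same order of groups. The sums therefore do not describe the list gene by gene. With radiation 7 of the 10 were called higher and 1 lower, against 27.9% and 28.2% of all genes tested. The epithelial list summed to at most 4.61 CPM in any library and the endothelial and immune list to at most 5.22 CPM. Of 8 smooth muscle markers 3 were tested, and MYOCD, the master coactivator of smooth muscle, had 0 counts in combination, IFNγ-treated and untreated libraries and 2 in irradiated ones. Irradiated replicate 2 stood apart from its group in the IFNγ-induced gene GBP5, with 59 counts against 10 and 3 in the other irradiated libraries. Without it, 7 members were called with radiation, as with it, and 7 in place of 8 for the combination against radiation, where BGN was lost.

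**Figure D1:**
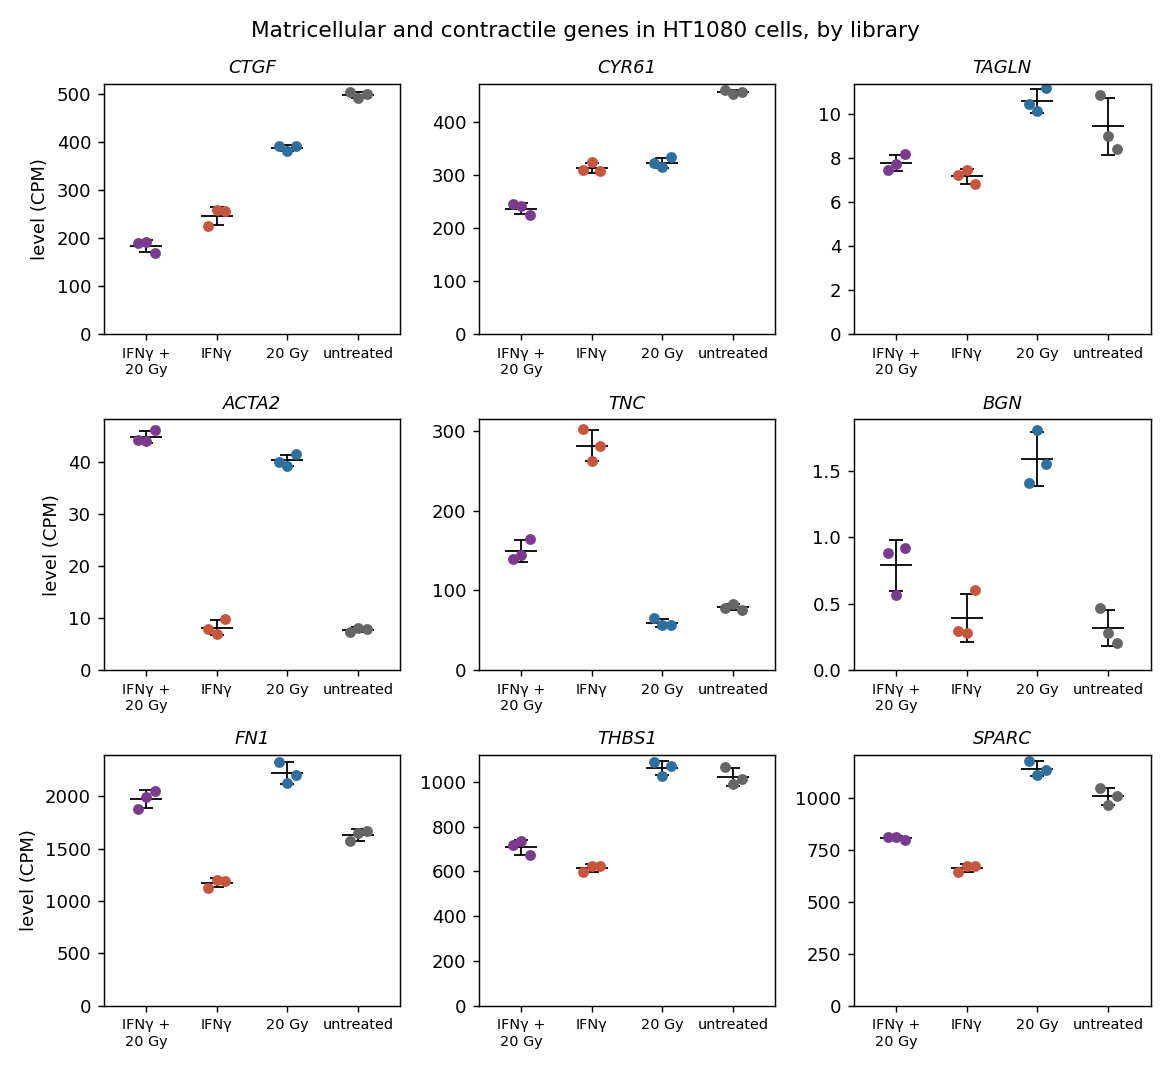
Level of each of the 9 genes in CPM (vertical axis, linear from 0) in 4 groups of 3 libraries: IFNγ with 20 Gy, IFNγ, 20 Gy and untreated. Points are libraries, and bars are the mean and SD. CTGF and CYR61 were lowest with both treatments, TNC was highest with IFNγ alone, and ACTA2 was high in the irradiated groups.

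Exon length allows a rough ranking of the genes within untreated cells. The length counts all exon bases annotated for a gene over all its transcripts, 17315 for FN1 and 2339 for CTGF. It can exceed the length of the transcripts present, which was not determined, so the order of genes close in level is uncertain. Per kilobase of exon in GENCODE 29, CTGF was at 213 CPM per kb, SPARC at 209, CYR61 at 186, THBS1 at 112 and FN1 at 94.3 CPM per kb. TNC followed at 8.18, ACTA2 at 2.61, TAGLN at 2.41 and BGN at 0.130 CPM per kb. CTGF, SPARC, CYR61, THBS1 and FN1 thus stood far above the other members per length.

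CTGF, a matricellular adaptor for growth factors and integrins, and CYR61, its closest relative here, were lower after IFNγ, after radiation and after both. CTGF was at 190.4, 192 and 169 CPM in combination cells, 224, 259 and 256 CPM in IFNγ-treated cells, 391, 381 and 392 CPM in irradiated cells and 504, 491 and 499.7 CPM in untreated cells. The 4 groups did not overlap, and the combination was lowest. Against untreated cells CTGF had a log2 fold change of -1.44 ± 0.043 (± SE) with both treatments, -1.02 ± 0.042 with IFNγ and -0.36 ± 0.040 with radiation. IFNγ lowered it in irradiated cells as well, by 1.08 ± 0.044 on the log2 scale against radiation alone (adjusted p = 3.23e-19, edgeR). Its relative CYR61 was at 245, 241 and 225 CPM in combination cells, 309, 325 and 307 CPM in IFNγ-treated cells, 322, 314 and 333 CPM in irradiated cells and 460.0, 452 and 457 CPM in untreated cells. Here the IFNγ and radiation libraries overlapped each other, and each group lay below untreated cells and above the combination. The log2 fold changes of CYR61 were -0.95 ± 0.034, -0.54 ± 0.033 and -0.50 ± 0.033 for the combination, IFNγ and radiation.

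THBS1, which encodes thrombospondin-1, a matricellular protein that can release active TGF-β from its latent complex, fell with IFNγ and was not called with radiation. THBS1 was at 717, 738 and 672 CPM in combination cells, 595, 624 and 626 CPM in IFNγ-treated cells, 1089, 1028 and 1071 CPM in irradiated cells and 1067, 989 and 1012 CPM in untreated cells. Irradiated and untreated libraries overlapped, and both groups lay above those with IFNγ. The log2 fold change was -0.73 ± 0.032 with IFNγ and -0.53 ± 0.032 with both against untreated cells, and -0.58 ± 0.032 for the combination against radiation. Radiation gave 0.055 ± 0.031 (adjusted p = 0.132, edgeR), which was called with library totals in place of TMM (adjusted p = 0.0386) and without untreated replicate 1 (0.086, adjusted p = 0.0127).

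SPARC, a collagen-binding matricellular protein, fell with IFNγ and rose slightly with radiation. It was at 815, 812 and 798 CPM in combination cells, 643, 674 and 673 CPM in IFNγ-treated cells, 1179.8, 1112 and 1137 CPM in irradiated cells and 1049, 968 and 1009.5 CPM in untreated cells. No groups overlapped, and the order was irradiated, untreated, combination and IFNγ. The log2 fold changes against untreated cells were -0.32 ± 0.029 for the combination, -0.60 ± 0.030 for IFNγ and 0.18 ± 0.029 for radiation, and the last is a 1.13-fold rise.

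TNC, which encodes tenascin-C, a large anti-adhesive glycoprotein of wounds and tumour stroma, was the member that IFNγ raised. TNC was at 139, 144 and 164 CPM in combination cells, 302, 262 and 281 CPM in IFNγ-treated cells, 64.6, 56.0 and 56.3 CPM in irradiated cells and 78.2, 82.6 and 75.7 CPM in untreated cells. The groups did not overlap, and IFNγ alone was highest and radiation alone lowest. IFNγ raised TNC 3.57-fold (log2 fold change 1.84 ± 0.070), and the combination raised it 1.89-fold (0.92 ± 0.074). Radiation lowered it by 0.42 ± 0.086 on the log2 scale (adjusted p = 6.81e-04, edgeR). Radiation lowered it under IFNγ too, with a log2 fold change of -0.92 ± 0.064 for the combination against IFNγ. Irradiated replicate 2, the library with more GBP5 counts, was at 56.0 CPM of TNC, nearly the same as irradiated replicate 3 at 56.3 CPM.

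BGN, which encodes biglycan, a small leucine-rich proteoglycan that binds TGF-β, was near the detection limit. It had 9, 6 and 10 counts in combination libraries, 3, 3 and 6 in IFNγ-treated, 14, 18 and 16 in irradiated and 5, 3 and 2 in untreated libraries. Irradiated libraries were the highest and did not overlap the others, while IFNγ-treated and untreated libraries overlapped. The log2 fold change was 2.27 ± 0.43 with radiation (adjusted p = 1.17e-05, edgeR) and 1.27 ± 0.51 with the combination against untreated cells, and -1.0 ± 0.35 for the combination against radiation. The last 2 calls ended in DESeq2 (adjusted p = 0.11 and 0.251). That against untreated cells also ended without untreated replicate 2 or combination replicate 1 (1.18 each), untreated replicate 3 (1.05) or combination replicate 3 (1.14). That against radiation ended with no filter on low counts (-0.99, adjusted p = 0.0575) and without irradiated replicate 2 (-0.90), irradiated replicate 3 (-1.02) or combination replicate 2 (-0.81).

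FN1, which encodes fibronectin, the matrix glycoprotein on which other matrix proteins assemble, rose with radiation and fell with IFNγ. FN1 was at 1882, 1997 and 2055 CPM in combination cells, 1127, 1204 and 1195 CPM in IFNγ-treated cells, 2333, 2127 and 2206 CPM in irradiated cells and 1572, 1651 and 1673 CPM in untreated cells. No groups overlapped, and the combination lay between radiation alone and untreated cells. Radiation gave a log2 fold change of 0.45 ± 0.034, IFNγ -0.47 ± 0.034 and the combination 0.28 ± 0.034 against untreated cells. Under IFNγ, radiation raised FN1 by 0.75 ± 0.034 on the log2 scale.

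ACTA2, the smooth muscle α-actin that marks myofibroblasts, rose with radiation and was not called with IFNγ. ACTA2 was at 44.2, 44.1 and 46.3 CPM in combination cells, 7.82, 6.91 and 9.73 CPM in IFNγ-treated cells, 40.1, 39.4 and 41.6 CPM in irradiated cells and 7.32, 8.09 and 7.92 CPM in untreated cells. IFNγ-treated and untreated libraries overlapped, and the irradiated groups lay far above them. Radiation raised ACTA2 5.19-fold (log2 fold change 2.38 ± 0.092), and the combination raised it 5.77-fold (2.53 ± 0.089). The combination lay above radiation alone in all libraries but was not called, at 0.15 ± 0.064 on the log2 scale (adjusted p = 0.0680, edgeR). IFNγ alone gave 0.063 ± 0.13. The summed level of the smooth muscle markers was 116 to 123 CPM in combination and 126 to 133 CPM in IFNγ-treated libraries. It was 117 to 124 CPM in irradiated and 137 to 154 CPM in untreated libraries. Nearly all of it was SMTN, with means of 111, 122, 112 and 137 CPM in that order, so the sum does not describe the list. Of the 3 tested markers radiation called 1 higher and 1 lower, against 27.9% and 28.2% of all genes. The ACTA2 gene overlaps FAS, a death receptor gene and p53 target on the opposite strand, by 380 of ACTA2's 2976 exon bases in GENCODE 29. FAS was at 67.5 ± 3.51 CPM in combination, 25 ± 1.75 in IFNγ-treated, 67.9 ± 2.22 in irradiated and 22.4 ± 1.06 CPM in untreated cells (mean ± SD, n = 3 each), a log2 fold change of 1.60 ± 0.065 with radiation. Libraries were stranded per the labels' extraction protocol, whereas the series' design text names an mRNA protocol and no strand. The strand setting of the counting is not given in the sources used here, and the part of FAS reads in the ACTA2 counts was not tested. ACTA2 also shares 516 exon bases with its antisense transcript ACTA2-AS1. Opposite-strand genes share 195 exon bases of CTGF, 381 of SPARC and 129 of TNC (DEC1). THBS1 shares 448 exon bases with FSIP1 and 411 with the antisense gene AC037198.2, both on the opposite strand.

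TAGLN encodes transgelin (SM22α), an actin-bundling protein of smooth muscle, and did not follow ACTA2. TAGLN was at 7.45, 7.75 and 8.17 CPM in combination cells, 7.22, 7.47 and 6.82 CPM in IFNγ-treated cells, 10.5, 10.1 and 11.2 CPM in irradiated cells and 10.9, 9.03 and 8.43 CPM in untreated cells. Irradiated and untreated libraries overlapped, as did combination and IFNγ libraries. The log2 fold change was -0.40 ± 0.13 with IFNγ, -0.28 ± 0.12 with the combination and 0.16 ± 0.12 with radiation (adjusted p = 0.0125, 0.0452 and 0.236, edgeR). DESeq2 called none of these, with adjusted p = 0.118 for IFNγ and 0.205 for the combination. Both calls also ended without untreated replicate 1, where the values were -0.28 and -0.17. That with IFNγ ended without IFNγ replicate 3 (-0.37), and that with the combination without IFNγ replicate 1 (-0.28), combination replicate 1 (-0.25) or combination replicate 2 (-0.28), and with no filter on low counts (-0.28, adjusted p = 0.0679). The combination against radiation gave -0.44 ± 0.12 (adjusted p = 0.00377, edgeR, and 0.0666 in DESeq2). TAGLN shares 446 of its 3917 exon bases with PCSK7 on the opposite strand, which was at 52.9 ± 0.662 CPM in combination, 44.3 ± 1.55 in IFNγ-treated, 54.7 ± 1.97 in irradiated and 42.5 ± 3.18 CPM in untreated cells. Its part in the TAGLN counts was not tested.

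**Figure D2:**
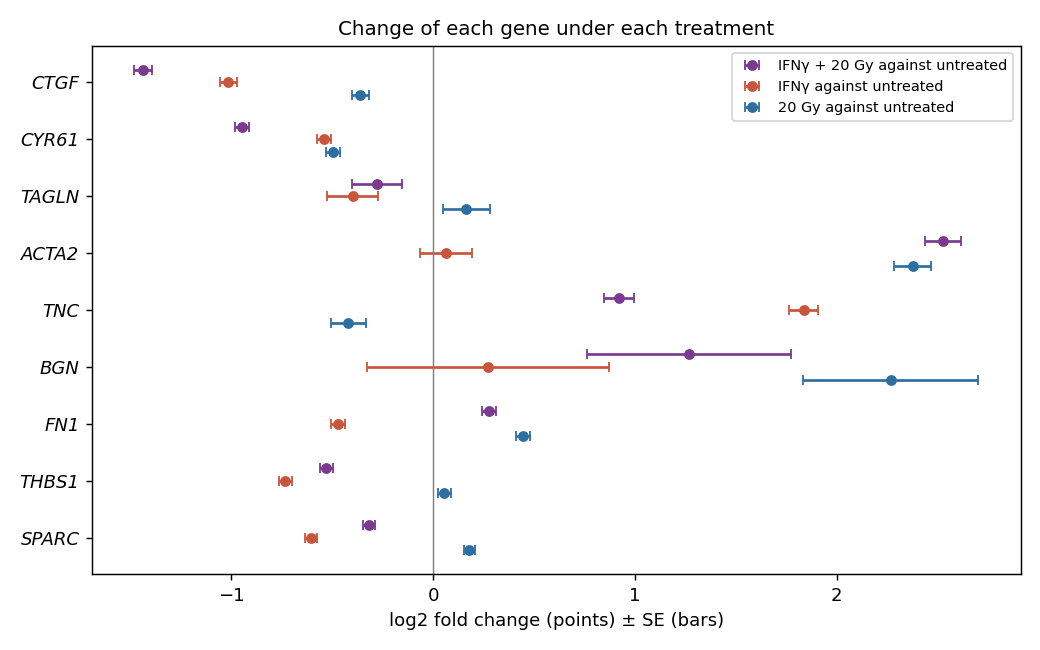
Log2 fold change of each gene (horizontal axis, points, with SE as bars) for IFNγ with 20 Gy, IFNγ alone and 20 Gy alone, each against untreated cells. CTGF and CYR61 lie below 0 in all 3 comparisons, ACTA2 lies near 0 with IFNγ and above 2 with radiation, and TNC lies above 0 with IFNγ and below 0 with radiation.

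Counted over the 9 genes, IFNγ against untreated cells called 7 (6 lower, 1 higher), where 29.1% of all genes tested were called, 14.1% lower and 15% higher. Over all genes the higher share of the calls was 51.6%, and was 31.1% if library totals were used unscaled, and 7 members were called either way. Radiation against untreated cells called 7 members (4 higher, 3 lower; 8 with library totals), against 56.1% of all genes, 27.9% higher and 28.2% lower. The combination against untreated cells called all 9 (4 higher, 5 lower), against 62.1% of all genes, 30.9% higher and 31.2% lower. The members' count after radiation lay nearer to the share of all genes than their count after IFNγ. The shares of all genes are not matched for level. CTGF, CYR61, THBS1, SPARC and FN1 had 1844 counts or more in each library, against a median of 324 over all genes tested. Smaller changes can be called at higher counts. Libraries of the groups compared did not overlap for 7 members with radiation, against 60.8% of all genes, and for all 9 with the combination, against 64.3%. These 3 comparisons share the untreated libraries. The median log2 fold change of the members was -0.47 with IFNγ, 0.16 with radiation and -0.28 with the combination, and that of all genes tested was -0.0052, 0.0061 and -0.0014.

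The effect of IFNγ with and without radiation was read from comparisons that share no library. In irradiated cells, the combination against radiation called 8 of 9 members (7 lower, 1 higher), against 26.9% of all genes, 12.4% lower and 14.5% higher. The higher share of all calls was 53.9%, and was 38.0% for unscaled totals. CTGF, CYR61, TAGLN, FN1, THBS1 and SPARC were the 6 members called lower in both settings, and TNC was called higher in both. Without irradiated replicate 2, 7 members were called. The libraries did not overlap for 9 members here, against 40.3% of all genes tested, and for 7 members with IFNγ alone, against 39.5%.

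The difference itself, the log2 fold change with IFNγ under radiation less that without radiation, was tested and called 2 of 9 members, where 2.38% of all genes were called (1.38% higher, 0.995% lower). Of all these calls 58.1% were higher, and 69.4% for unscaled totals. FN1 fell less with IFNγ in irradiated cells (-0.17 ± 0.033) than in unirradiated cells (-0.47 ± 0.034), a difference of 0.31 ± 0.048 (adjusted p = 1.97e-04, edgeR) that was called under all 16 alternatives. TNC rose less in irradiated cells (1.34 ± 0.078) than in unirradiated cells (1.84 ± 0.070), a difference of -0.49 ± 0.11 (adjusted p = 0.0269, edgeR). The call of TNC ended without untreated replicate 1 (-0.49, adjusted p = 0.188), untreated replicate 3 (-0.47), IFNγ replicate 3 (-0.50) or combination replicate 2 (-0.47). THBS1 had a difference of 0.15 ± 0.045 (adjusted p = 0.0664), which was called with library totals, with no filter and without untreated replicate 2 or combination replicate 3. CTGF had -0.061 ± 0.061 and CYR61 0.091 ± 0.048, neither called. BGN, at -1.27 ± 0.71, was not called and had the widest error.

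**Figure D3:**
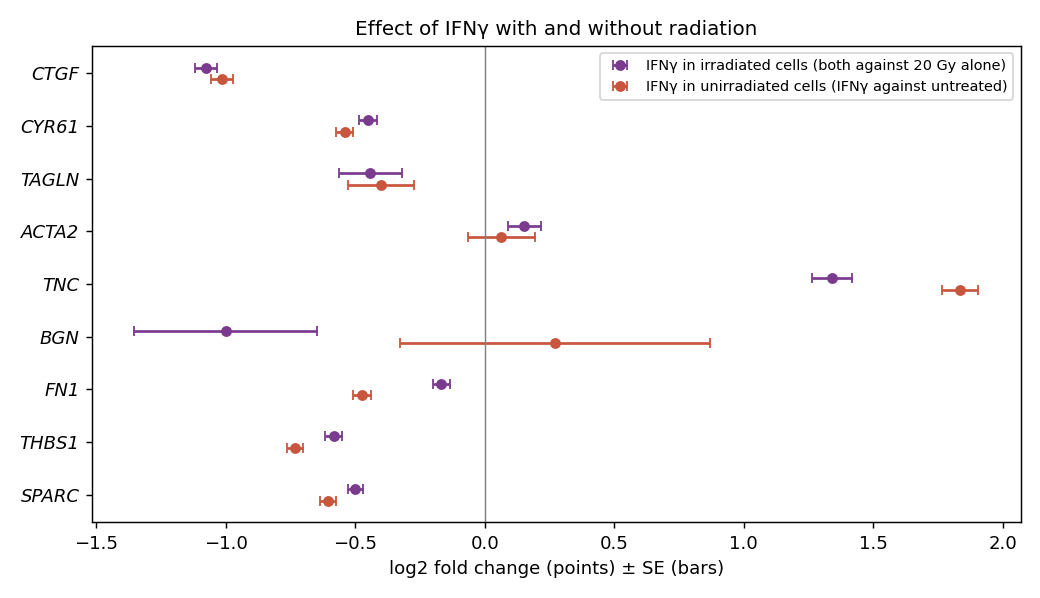
Log2 fold change with IFNγ (horizontal axis, points, with SE as bars) in irradiated cells (IFNγ with 20 Gy against 20 Gy) and in unirradiated cells (IFNγ against untreated) for each gene. The pairs of CTGF, CYR61 and TAGLN lie close together, FN1 lies nearer 0 in irradiated cells, and TNC lies lower in irradiated cells.

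Radiation under IFNγ, the combination against IFNγ alone, called 7 of 9 members (4 higher, 3 lower), against 60.7% of all genes tested, 30.3% higher and 30.4% lower. For 7 members the libraries did not overlap, against 64.2% of all genes. ACTA2, FN1 and SPARC were the 3 members called higher with radiation both with and without IFNγ. THBS1 rose under IFNγ by 0.20 ± 0.032 on the log2 scale, and CTGF (-0.42 ± 0.045), CYR61 (-0.41 ± 0.035) and TNC fell. BGN (1.00 ± 0.49, adjusted p = 0.0715) and TAGLN (0.12 ± 0.13) were not called, although BGN was called without IFNγ replicate 3 (1.42) or combination replicate 2 (1.18).

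The following lists are read against the shares of all genes called above, and against medians over all genes of -0.0052 with IFNγ, 0.0061 with radiation and -0.0078 with IFNγ in irradiated cells. A few genes, such as TGFB2 and LATS2, stand in more than 1 list. Of 17 tested TGF-β ligands, latency proteins and receptors, 11 rose and 2 fell with radiation against untreated cells, with a median log2 fold change of 0.43 against 0.0061 over all genes. With radiation TGFB1 (0.43 ± 0.038), TGFB2 (0.88 ± 0.066), the receptors TGFBR1 (0.55 ± 0.046) and TGFBR2 (0.43 ± 0.030), the activin subunit INHBA (1.02 ± 0.059) and the endothelial type I receptor ACVRL1 (1.54 ± 0.30) rose. Counts of ACVRL1 were low, 27 over all untreated libraries and 77 over all libraries with radiation alone. The activin antagonist FST (-0.39 ± 0.050) and INHBB (-0.69 ± 0.18) fell. With IFNγ, 3 rose and 6 fell. LTBP1, which holds latent TGF-β in the matrix, rose by 0.81 ± 0.045 and TGFBR1 by 0.19 ± 0.047, TGFB2 (-0.57 ± 0.080), INHBA (-0.64 ± 0.072) and TGFBR2 (-0.21 ± 0.031) fell, and TGFB1 was at 0.0061 ± 0.039. In irradiated cells IFNγ raised 4 and lowered 2, or 4 and 4 for unscaled totals. There LTBP1 (0.47 ± 0.042), TGFB1 (0.19 ± 0.037) and TGFBR1 (0.16 ± 0.043) rose, TGFB2 (-0.42 ± 0.062) and INHBA (-0.38 ± 0.055) fell, and TGFBR2, not called, was at -0.074 ± 0.030. TGFBR2 was called lower there for unscaled totals (-0.12) and without untreated replicate 1 (-0.074), IFNγ replicate 3 (-0.074) or irradiated replicate 2 (-0.092). With both treatments against untreated cells 11 of the list rose and 2 fell, and TGFB2 (0.46 ± 0.069) and TGFBR2 (0.36 ± 0.030) were among those that rose. With both treatments LTBP1 was at 265 ± 18.2 CPM, against 129 ± 4.24 CPM in untreated cells (mean ± SD, n = 3 each).

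Of 13 SMADs and feedback regulators, 8 rose and 4 fell with radiation, and 2 rose and 6 fell with IFNγ. The signal transducer SMAD3 rose with radiation (0.25 ± 0.031) and fell with IFNγ (-0.18 ± 0.032), and PMEPA1, a TGF-β target that feeds back on the SMADs, did the same (0.49 ± 0.073 and -0.76 ± 0.086). The ubiquitin ligase SMURF2 fell with each (-0.46 ± 0.049 and -0.38 ± 0.048), the inhibitory SMAD6 rose with each (0.50 ± 0.14 and 0.51 ± 0.13), and the shared partner SMAD4 fell with radiation (-0.35 ± 0.047). The inhibitory SMAD7 rose with radiation (0.24 ± 0.093), a call that ended in DESeq2 (adjusted p = 0.113) and without untreated replicate 2 (0.16), untreated replicate 3 (0.23) or irradiated replicate 3 (0.19). It was at 0.16 ± 0.094 with IFNγ and was not called. In irradiated cells IFNγ gave -0.0016 ± 0.031 for SMAD3, 0.039 ± 0.089 for SMAD7 and -0.58 ± 0.074 for PMEPA1, and only PMEPA1 of these 3 was called.

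Of 14 other TGF-β targets tested, 10 rose and 1 fell with radiation (median 0.50), and 5 rose and 6 fell with IFNγ (median -0.027). COL1A2 (1.04 ± 0.25) and the transcription factor SNAI2 (0.63 ± 0.069) rose with radiation, and ID1 (-0.22 ± 0.050) fell. TGFBI, an integrin-binding matrix protein, fell with IFNγ in irradiated (-0.67 ± 0.049) and unirradiated (-0.69 ± 0.055) cells, as did COL1A1, a collagen I chain (-0.76 ± 0.14 and -1.20 ± 0.19), and the transcription factor KLF10 rose (0.42 ± 0.053 and 0.58 ± 0.053).

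Of 18 tested transcripts of the Hippo pathway, 4 rose and 4 fell with IFNγ, and YAP1 (0.0027 ± 0.035), WWTR1, which encodes TAZ (0.018 ± 0.037), and TEAD1 (0.043 ± 0.037) were not called. TEAD4 (0.36 ± 0.064) and the kinase LATS2 (0.23 ± 0.056) rose. With library totals in place of TMM the signs of YAP1, WWTR1 and TEAD1 turned negative. With radiation 6 rose and 5 fell: YAP1 (0.31 ± 0.035) and WWTR1 (0.18 ± 0.036) rose, and TEAD4 (-0.91 ± 0.077) and NF2, the upstream activator of the Hippo kinases (-0.40 ± 0.035), fell. In irradiated cells IFNγ gave -0.078 ± 0.034 for YAP1, 0.015 ± 0.036 for WWTR1, 0.030 ± 0.036 for TEAD1 and 0.10 ± 0.055 for LATS2, none called, while TEAD4 rose (0.48 ± 0.081) and NF2 fell (-0.22 ± 0.037). YAP1 was called lower there for unscaled totals (-0.12, adjusted p = 0.00460) and without combination replicate 3 (-0.11, adjusted p = 0.0284). YAP and TAZ are controlled mainly by phosphorylation and location, which RNA levels do not show.

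Of 21 other YAP and TAZ targets, 12 fell and 5 rose with IFNγ, a median of -0.17. In irradiated cells IFNγ lowered 10 and raised 0, a median of -0.11. ANKRD1, a muscle ankyrin repeat protein and YAP target, fell with IFNγ in irradiated (-0.78 ± 0.049) and unirradiated (-0.54 ± 0.050) cells, and so did AMOTL2, a feedback inhibitor of YAP (-0.23 ± 0.039 and -0.29 ± 0.037). Radiation counted 10 higher and 7 lower. NT5E, an ectonucleotidase (1.37 ± 0.42), and ANKRD1 (0.25 ± 0.046) rose, whereas AMOTL2 (-0.33 ± 0.037), the coagulation initiator F3 (-0.50 ± 0.074) and FJX1 (-0.76 ± 0.12) fell. NT5E was near the detection limit, with 15 counts over all untreated libraries and 38 over all libraries with radiation alone. F3 fell furthest of the list with both treatments, by 1.35 ± 0.083 on the log2 scale.

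Actin and contractile genes fell by small steps with IFNγ, 16 of 23 lower and 2 higher, a median of -0.13. Tropomyosin TPM1 (-0.63 ± 0.034), the non-muscle myosin MYH10 (-0.33 ± 0.051) and the myosin light chain MYL9 (-0.31 ± 0.072) fell, and the Z-disc protein SYNPO2 rose (2.05 ± 0.50). SYNPO2 was near the detection limit, with 9 counts over all untreated libraries and 38 over all libraries with IFNγ alone. SRF (-0.10 ± 0.054) and its cofactor MKL1 (-0.15 ± 0.079), an MRTF, were not called, and were called lower with library totals (-0.16 and -0.21). In irradiated cells IFNγ lowered 12 and raised 2, with TPM1 at -0.56 ± 0.033, MYL9 at -0.30 ± 0.061, MKL1 at -0.21 ± 0.073 and SRF, not called, at -0.088 ± 0.058. The call of MKL1 there ended in DESeq2 (adjusted p = 0.165) and without irradiated replicate 1 (-0.21), irradiated replicate 2 (-0.19), combination replicate 1 (-0.16) or combination replicate 2 (-0.18). Radiation raised 8 and lowered 10. MYL9 (0.60 ± 0.064), TPM1 (0.37 ± 0.033) and MKL1 (0.31 ± 0.074) rose, and the cytoplasmic actins ACTB (-0.44 ± 0.026) and ACTG1 (-0.38 ± 0.027) and SRF (-0.31 ± 0.056) fell. CNN1, which encodes the smooth muscle calponin, had 2 to 3 counts per group and was not tested.

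Of 9 other matricellular and CCN genes tested, 4 fell and 0 rose with IFNγ, and 5 rose and 0 fell with radiation. The proteoglycan versican, VCAN, moved most, at -1.06 ± 0.062 with IFNγ and 1.06 ± 0.049 with radiation. NOV, the third CCN gene (-0.76 ± 0.18), and SPOCK1, a testican related to SPARC (-0.34 ± 0.036), fell with IFNγ. SMOC1, another SPARC relative (1.03 ± 0.15), and THBS3 (0.81 ± 0.14) rose with radiation, and THBS2 was lower in the combination than in irradiated cells (-0.42 ± 0.051).

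**Figure D4:**
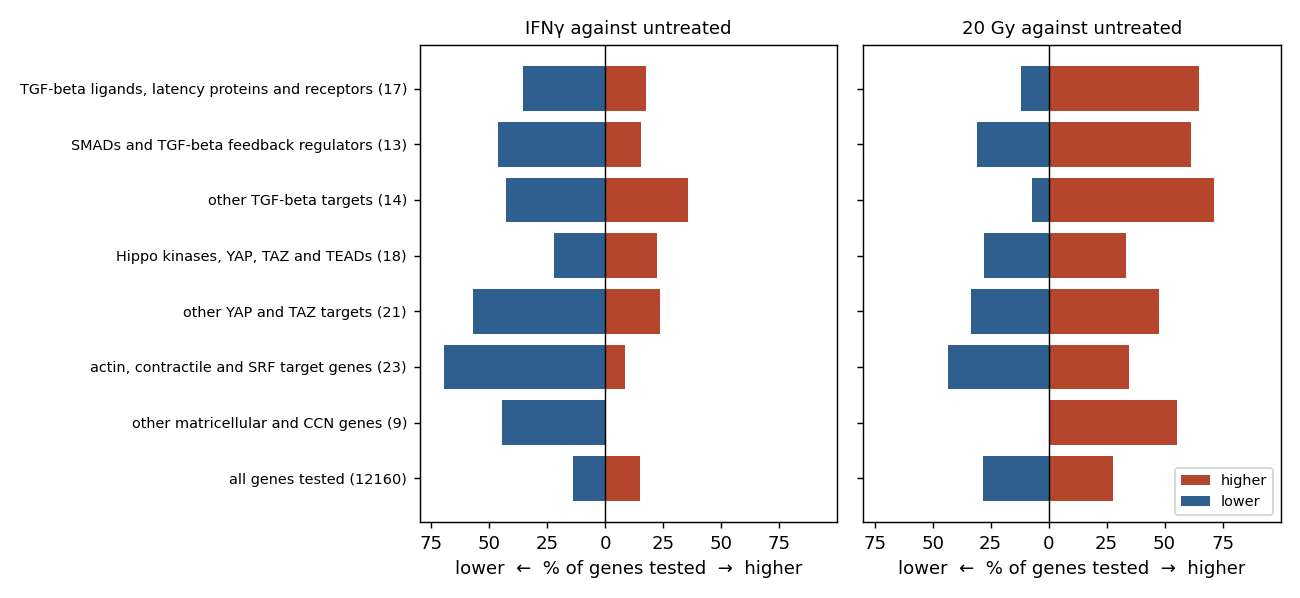
Share of the tested genes of each list (number in brackets) called higher (right of 0) or lower (left of 0), in percent, with IFNγ against untreated (left panel) and with 20 Gy against untreated (right panel). The lowest bar gives the same over all 12160 genes tested, and the contractile list extends furthest to the lower side with IFNγ.

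Among 112 tested genes of these lists, the difference between the effects of IFNγ in irradiated and unirradiated cells was called for 8, 4 of them positive. Over all genes tested 2.38% were called, 1.38% higher and 0.995% lower. VCAN (0.51 ± 0.078), ARHGEF17 (0.41 ± 0.096), SMAD3 (0.18 ± 0.044) and AMOT (0.60 ± 0.17) were positive, and F3 (-0.57 ± 0.12), LTBP1 (-0.35 ± 0.062), FST (-0.29 ± 0.070) and ANKRD1 (-0.24 ± 0.070) were negative. The calls of VCAN, F3 and LTBP1 held under all 16 alternatives. That of FST ended without untreated replicate 2 (-0.23). That of SMAD3 ended without irradiated replicate 2 (0.16) or 3 (0.17), and that of ARHGEF17 in DESeq2 (0.40) or without combination replicate 2 (0.35). AMOT's call ended without untreated replicate 2, IFNγ replicate 1 or any 1 irradiated or combination library (0.45 to 0.65). ANKRD1's ended under 12 alternatives (-0.27 to -0.20).

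Likeness of pattern was measured as the root mean square difference between 2 genes' log2 CPM over the 4 group means, each centred on its own mean, among 10481 candidates that were no members and had a mean log2 CPM of 2 or more. Nearest to ACTA2 were TP53INP1 (0.046) and GDF15 (0.10), both known p53 targets, beside a spread of ACTA2 itself of 1.20. AKAP12 (0.099), a kinase anchor, and the cytokine IL24 (0.11) were nearest to CTGF, whose spread was 0.56. The matrix metalloproteinase MMP16 (0.031) and KCNAB1 (0.052) were nearest to CYR61. CA13 lay at 0.22 from TNC, whose spread was 0.87. FN1 lay closest to EPHX1 (0.032) and UBTD1 (0.034), and SPARC to SIM2 (0.010) and SYT14 (0.018). THBS1 lay closest to CACNG8 (0.017) and MOK (0.018), and TAGLN to ORMDL3 (0.019) and NBPF15 (0.020). BGN had the most distant neighbours, DYSF (0.24) and SLAMF7 (0.25).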

How the data were processed

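For 12 RNA-seq libraries of HT1080 cells, whole-number counts per gene were deposited, not normalized. The submitters' processing notes name TopHat2 2.0.13, FastQC 0.11.3, Cuffdiff 2.2.1 and Cufflinks, and the build hg19 (GRCh37). How reads were counted, on which strand and with which annotation is not given in the sources used here, so counts of overlapping genes are uncertain. Per the labels' protocols, ribosomal RNA was removed and stranded libraries were made, whereas the series' design text names an mRNA protocol, and which applies was not settled. The first 4 column names are shifted by 1 place and were read by content. Each count column was matched to its library by title.

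Counts were filtered with filterByExpr, scaled by TMM and fitted over all 12 libraries with the quasi-likelihood F test of edgeR 4.0.16 in R 4.3.3, with robust dispersions and a mean per group. Genes were called at a Benjamini-Hochberg adjusted p under 0.05 over all 12160 genes tested. SEs were approximated from the fold change and its F statistic. The fit was tested on simulated counts. DESeq2 1.42.0, library totals in place of TMM, no filter on low counts, the replicate number as a block and leaving out each library were the alternatives. No replicate was a copy of another: over 12 replicate pairs, chi-square divided by its degrees of freedom ran from 1.13 to 2.67.

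The 9 members, 7 pathway lists and 4 marker lists were chosen with earlier results of these data known. Genes named from the lists are up to 3 called genes with the largest change in each direction, and 17 genes whatever their call, and a few genes that this rule names are not reported here. FAS was named for its overlap with ACTA2, and PCSK7 was added after its values were seen. Exon lengths and overlaps come from GENCODE 29 (build GRCh38) by gene identifier, and no coordinates were carried between builds. Promoter windows come from RefSeq.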

Additional observations from a re-analysis of the deposited data

Results flagged for a closer look

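For 2 members the effect of IFNγ differed between irradiated and unirradiated cells by the test of the difference itself. FN1 had a difference of 0.31 on the log2 scale, with -0.17 ± 0.033 in irradiated and -0.47 ± 0.034 in unirradiated cells. TNC had a difference of -0.49, with 1.34 ± 0.078 in irradiated and 1.84 ± 0.070 in unirradiated cells, and its call depended on single libraries. Their cause was not tested.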

How the results depend on the processing

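Of 54 log2 fold changes of the members, 41 kept their direction and their side of the threshold under all 16 alternatives, as did 112 of 135 of other named genes. DESeq2 called 2129 genes for the combination against radiation, where edgeR called 3270, and 147 for the difference between the IFNγ effects, where edgeR called 289. Leaving out 1 library gave 161 to 332 genes and 1 to 3 members for that difference. The lowest counts of genes were 161 without irradiated replicate 2 and 179 without combination replicate 2. The cause was not tested.

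With library totals the log2 fold change with IFNγ turned to -0.052 for TGFB1, -0.055 for YAP1, -0.039 for WWTR1 and -0.015 for TEAD1. In irradiated cells it turned to -0.026 for WWTR1, -0.012 for TEAD1 and -0.0024 for SMAD7, and that of SMAD3 to 0.0046 with no filter. None of these was called. Leaving out 1 library gave, with IFNγ alone, -0.081 to 0.17 for ACTA2, -0.15 to 0.65 for BGN, -0.037 to 0.040 for TGFB1, -0.016 to 0.018 for YAP1 and -0.028 to 0.054 for WWTR1. In irradiated cells it gave -0.0097 to 0.043 for WWTR1, -0.051 to 0.019 for FAS, -0.016 to 0.017 for SMAD3 and -0.050 to 0.15 for SMAD7. For the difference between the IFNγ effects it gave -0.16 to 0.029 for TAGLN and -0.020 to 0.23 for ACTA2.

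Same-numbered libraries did not deviate together (r of -0.071 to 0.054 over 18 pairs). With 3 libraries per group this cannot decide whether same-numbered libraries were handled together, which the labels do not say. A replicate block gave 3525 genes for IFNγ, 6804 for radiation, 7541 for the combination against untreated cells, 7347 for the combination against IFNγ, 3262 against radiation and 276 for the difference. With the replicate block the calls of TAGLN for the combination against untreated cells (-0.28, adjusted p = 0.0512) and of ANKRD1 for the difference (-0.24, adjusted p = 0.0526) ended. BGN, with at most 18 counts in a library, limits what can be said of it.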
